A study of Rattus norvegicus with 10 samples.

Results

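The genes of the cell division cycle were followed in splenic M2 macrophages of rats, as a readout of dividing cells in each library. The list held 50 gene symbols, chosen by function but with earlier results of these data known. Of these, 45 were among the 9003 genes of the deposited expression table. *Ccne2*, *Cdc6*, *Bub1b*, *Nusap1* and *Cenpe* were not among the genes of the table and were not analysed here. By role, the genes in the table were 8 of 9 G1 cyclins, their kinases and E2F factors, 3 of 3 inhibitors of cyclin-dependent kinases, 10 of 11 replication licensing and helicase genes, 4 of 4 genes of nucleotide supply, 12 of 13 mitotic cyclins, kinases and checkpoint genes, and 8 of 10 genes of the mitotic chromosome, spindle and kinesins. The 14 genes of licensing, helicase and nucleotide supply are called replication genes below, and the 20 genes of the last groups mitosis genes.

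A resting cell enters the cycle when D-type cyclins and their kinases release E2F factors from the retinoblastoma protein, and E2F then switches on the genes of DNA replication. The mitosis genes are switched on later, in G2, largely through a repressor and activator complex that reads CHR elements in their promoters, so their transcripts mark cells that are close to division. Most tissue macrophages are out of the cycle, while activated lymphocytes divide readily.

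All rats were female young adults of the WKY strain (WKY /Ncrj in the labels). The study matched ages within each cell treatment experiment and does not say whether the control rats were matched too. Control macrophages came from rats in a physiological condition, and GN macrophages from rats with glomerulonephritis that received no cell therapy. The nephritis was induced with the mouse monoclonal antibody TF78, which binds rat glomerular basement membrane. EV+ and EV- macrophages came from nephritic rats that were given human adipose-derived stem cells (ASCs) labeled with the membrane dye DiD. EV+ cells carried the dye, taken as a sign of transferred extracellular vesicles, and EV- cells did not. Each library was made from a spleen fraction enriched with an antibody against CD11b/c and then sorted. There were 2 control, 2 GN, 3 EV+ and 3 EV- libraries, which the study calls biological replicates without saying how many rats each held or whether EV+ and EV- cells shared rats.

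The libraries held 19270515 to 26617093 reads on the genes of the table, so a floor of 3 reads corresponded to 0.113 to 0.153 CPM, the counts scaled to library size, and floors cover counting error only. The macrophage genes *Csf1r* (5800 to 8156 CPM), *Lyz2* (15325 to 20176 CPM) and *Cd68* (1163 to 1466 CPM) were high in every library. Of the other macrophage markers, *Adgre1* (1024.5 to 1491.3 CPM) and *Itgam* (387.6 to 640.7 CPM) were high as well. *C1qa*, *C1qb*, *C1qc*, *Vcam1* and *Spic* were low, between 0.917 and 11.2 CPM. The scavenger receptor gene *Cd163* and the mannose receptor gene *Mrc1*, both common M2 markers, lay between 0 and 1.81 CPM. EV- replicate 1 stood apart in its genes of natural killer (NK) and T cells. Its B cell genes did not, since 7 B cell markers summed to 451 CPM there and to between 422 and 580 CPM in the other libraries. Of 4 mesenchymal markers, *Col3a1* and *Nt5e* were highest in EV- replicate 1, and of 4 neutrophil precursor markers *Camp* was. Of 7 plasma cell markers, *Mzb1*, *Sdc1* and *Tnfrsf17* were highest there. The plasma cell markers summed to 158 CPM in that library and to between 127 and 187 CPM in the other libraries. Of 18 NK and T cell markers in the table, 15 were highest in that library. Without *Cd4*, *Cd8a* and *Cd8b*, which were high in every library and were set aside after their values were seen, the remaining 15 markers summed to 860 CPM there, to 129 CPM in EV- replicate 2, to 70.3 CPM in EV- replicate 3 and to between 30.6 and 53.8 CPM in the other libraries. *Prf1*, the perforin gene, stood at 335 CPM in EV- replicate 1 against 7.0 to 51.4 CPM elsewhere, and *Cd3e*, a subunit of the T cell receptor complex, at 2.09 CPM against 0 in 6 libraries. Whether NK or T cells contributed to the values below was not tested. The main results that rest on EV- replicate 1 are also given without it.

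Most of the cell cycle genes were expressed weakly. The mean over the 10 libraries was under 10 CPM for 32 of 45 genes and under 1 CPM for 9 of them, and 29 genes reached 1 CPM in every library. Of the 20 mitosis genes 18 had a mean under 10 CPM, and *Aurka* and *Hmgb2* had higher means. The table holds only genes that reached 1 CPM in some library, and 5 genes of the list (*Ccne1*, *Ccna2*, *Ccnb2*, *Ube2c* and *Birc5*) reached it in EV- libraries alone. *Ccna2* and *Birc5* did so in EV- replicate 1 only. These genes had entered the table through the group in which they were high, so their difference between groups is given as a description. The least covered gene was *Ccne1*, with 69 reads over all libraries.

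**Figure D1:**
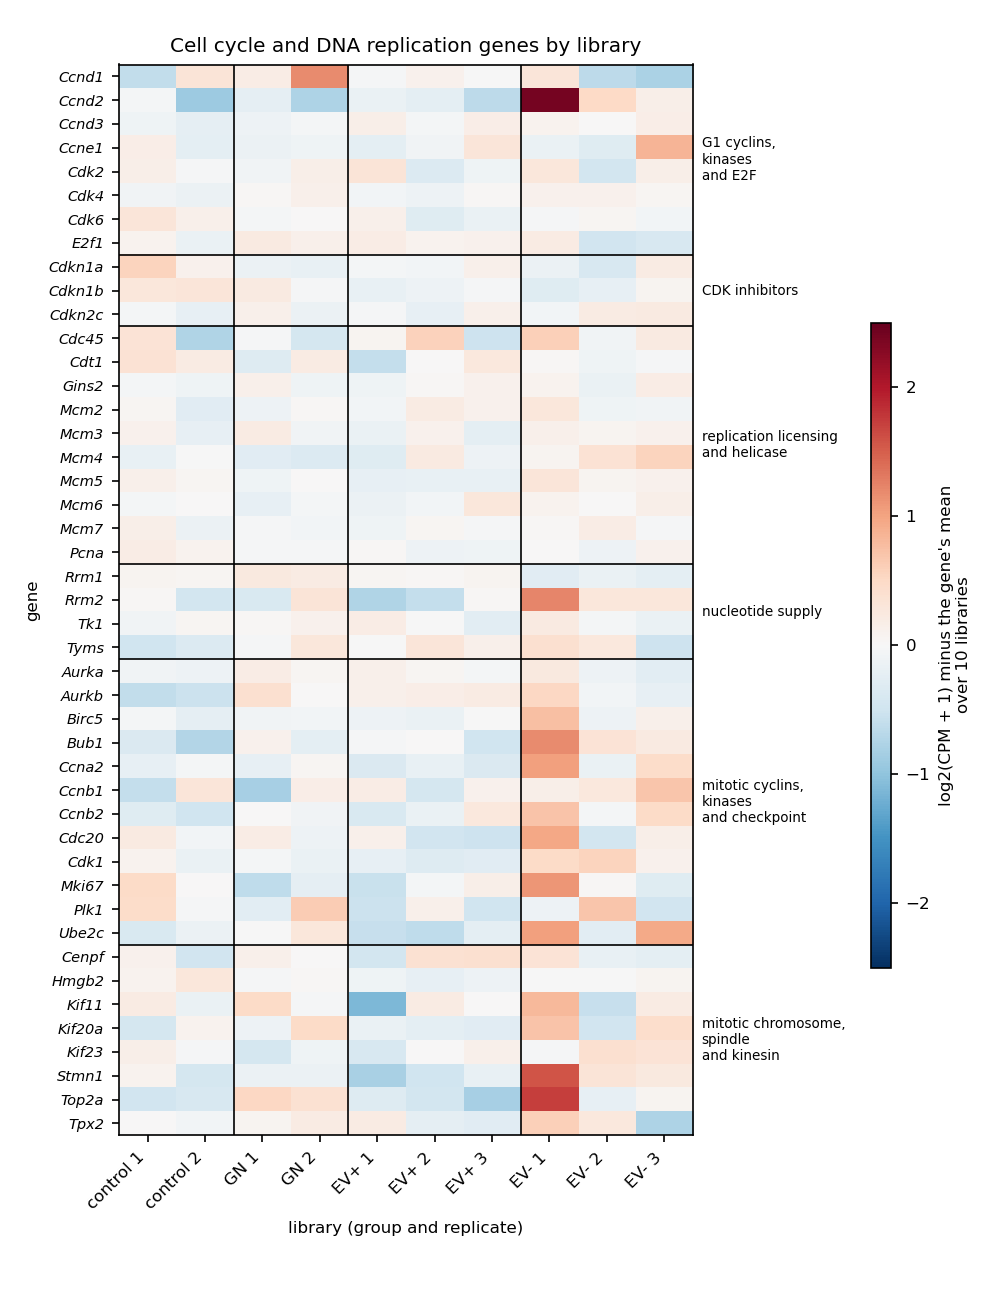
Level of the 45 cell cycle genes (rows, by role) in each of the 10 libraries (columns), as log2(CPM + 1) minus the mean of the gene over the 10 libraries, with red above and blue below that mean. The column of EV- replicate 1 is red over most mitosis genes, with 14 of 20 at their highest level there, while most replication licensing genes stay close to their mean in all libraries.

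The comparison of groups found few cell cycle genes that changed. Differences were tested with limma on log2(CPM + 1) over all 9003 genes, with Benjamini-Hochberg adjustment and a false discovery rate of 0.1, and all folds below are on this scale, which understates the change of low genes. GN against control gave 0 of 45 genes, where 1.75% of all genes were called. EV+ against control gave 1 of 45 (*Hmgb2*, lower), against 3.63% of all genes. EV- against control gave 1 of 45 (*Rrm1*, lower), against 2.84% of all genes. EV+ against GN gave 0 of 45 against 0.122%, EV- against GN gave 1 of 45 (*Rrm1*, lower) against 0.378%, and EV+ against EV- gave 0 of 45 against 0.0222% of all genes.

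At an unadjusted p under 0.05, GN against control held 3 of 45 cell cycle genes where 10.4% of all genes passed, and EV+ against control held 5 of 45 against 15%. EV- against control held 14 of 45 against 13.1%, with 11 of the 14 higher in EV-. EV+ against GN held 2 of 45 against 7.13%, and EV- against GN held 6 of 45 against 7.85%. EV+ against EV- held 12 of 45 against 4.57% of all genes, with 11 of the 12 lower in EV+. Without EV- replicate 1, EV- against control held 4 higher and 2 lower of the 45, beside 545 higher and 542 lower among all genes, and EV+ against EV- held 4 higher and 5 lower, beside 192 higher and 185 lower. The comparisons share groups and are not independent of each other. *Ccnb2* and *Ube2c*, which entered the table through EV- libraries alone, were among the genes counted as higher in EV- against control. *Ube2c* and *Ccna2*, which entered through EV- replicate 1 alone, were among those counted as lower in EV+ against EV-. When EV- replicate 1 was left out, *Ube2c* was still among those counted as lower there. The counts were not repeated without the genes that entered in this way, so they are given as a description.

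*Rrm1*, the large subunit of the ribonucleotide reductase that makes deoxyribonucleotides for DNA synthesis, was the replication gene with the clearest group difference. It stood at 397 and 391 CPM in the control libraries, 447 and 433 CPM in GN, 388, 385 and 394 CPM in EV+, and 311, 338 and 317 CPM in EV-. The EV- libraries were below all others, the GN libraries above all others, and EV+ and control overlapped. The fall in EV- was 0.29 ± 0.07 (SE) in log2 against control (321.7 ± 14.3 against 393.9 ± 4.53 CPM, mean ± SD, limma adjusted p = 0.0451), and 0.45 ± 0.07 against GN (439.8 ± 9.53 CPM, limma adjusted p = 0.0106). EV+ was 0.27 ± 0.06 above EV- on the log2 scale, which was not called (limma adjusted p = 0.309), but was called when the replicate number was a block for the EV+ and EV- libraries alone (limma adjusted p = 0.0364), an alternative chosen after seeing the data. Leaving out either control library, EV- replicate 1 or EV- replicate 3 raised the adjusted p against control to between 0.126 and 0.232, and leaving out GN replicate 1 or GN replicate 2 raised that against GN to 0.193 and 0.108. Without EV- replicate 1 the difference from GN was -0.43 ± 0.07 and was still called (limma adjusted p = 0.0393).

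*Rrm2*, the small subunit of the same enzyme, which is limited to dividing cells, had another pattern. Its level was 0.847 and 0.330 CPM in control, 0.394 and 1.28 CPM in GN, 0.0781, 0.210 and 0.848 CPM in EV+, and 3.26, 1.22 and 1.21 CPM in EV-. Every EV- library was above every EV+ library, the highest being EV- replicate 1, and the log2 difference of EV+ from EV- of -1.04 ± 0.33 was not called (limma adjusted p = 0.934). Leaving out EV- replicate 1 gave -0.72 ± 0.31. The fitted differences of the 2 subunits between EV+ and EV- lay on opposite sides, and neither passed the test without the block. *Tyms*, the thymidylate synthase, ranged from 1.21 CPM in EV- replicate 3 to 3.16 CPM in EV- replicate 1, and *Tk1*, the cytosolic thymidine kinase, from 76.2 CPM in EV+ replicate 3 to 108 CPM in EV- replicate 1. For both genes the EV- libraries overlapped those of the other nephritic groups.

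Most genes that license origins and unwind DNA were expressed at similar levels in all libraries, and the low *Cdc45*, a helicase cofactor, varied most, from 0.0825 to 1.75 CPM. The MCM genes encode the helicase, and *Mcm6* ranged from 48.4 to 68.5 CPM, *Mcm7* from 46.5 to 58.7 CPM, and *Pcna*, the sliding clamp of the polymerases, from 88.4 to 111 CPM. The median log2 difference over the 10 licensing and helicase genes lay between -0.09 and 0.11 in the 6 comparisons, beside medians between -0.01 and 0.01 over all genes. *Mcm4* had the largest difference among them, at 15.9 and 18 CPM in control, 14.8 and 14.2 CPM in GN, 14.5, 21.4 and 16.4 CPM in EV+, and 19.1, 23.4 and 27.2 CPM in EV-. All EV- libraries were above all control and GN libraries, and EV+ overlapped EV-. The log2 difference of EV- from GN of 0.63 ± 0.18 was not called (limma adjusted p = 0.307). In 10 of 10 of these genes the fitted EV- level was above that of GN, as in 4513 of all 9003 genes, and 0 of 10 passed the test. Leaving out EV- replicate 1 gave 8 of 10, beside 4471 of 9003.

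Summed over the 14 replication genes, the libraries held between 750 and 855 CPM. The means were 816 ± 22.4 CPM in control, 852 ± 4.25 CPM in GN, 800 ± 5.09 CPM in EV+ and 759 ± 10.1 CPM in EV- (SD, n = 2, 2, 3 and 3). This sum is led by *Rrm1*, and the order GN, control, EV+, EV- is that of its mean. Without *Rrm1* the sum of EV- replicate 1 was 1.06 times that of the highest other library, and with it 0.901 times. EV- replicate 1 held the highest value of 6 of these 14 genes (*Cdc45*, *Mcm2*, *Mcm5*, *Rrm2*, *Tk1* and *Tyms*).

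The G1 genes were led by *Ccnd3*, the D-type cyclin of blood cells, at 543 and 496 CPM in control, 533 and 565 CPM in GN, 643, 561 and 656 CPM in EV+, and 616, 590 and 657 CPM in EV-. Every EV- library was above every control library, and so was every EV+ library. The log2 differences from control of 0.25 ± 0.08 for EV+ and 0.26 ± 0.08 for EV- were not called (limma adjusted p = 0.159 and 0.173). *Cdk4*, a kinase partner of the D-type cyclins, ranged from 58.4 to 70.3 CPM, and *E2f1*, the activating E2F factor, from 5.61 to 9.74 CPM. For *E2f1* the lowest values were EV- replicate 2 and EV- replicate 3, at 5.61 and 5.99 CPM, while EV- replicate 1 stood at 9.52 CPM.

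*Ccnd2*, the D-type cyclin that lymphocytes raise on activation, was low in 9 libraries and high in EV- replicate 1. It stood at 1.19 and 0.206 CPM in control, 0.947 and 0.339 CPM in GN, 1.02, 0.926 and 0.446 CPM in EV+, and 10.9, 2.19 and 1.52 CPM in EV-, or 224 reads in EV- replicate 1 and 5 to 43 reads elsewhere. All EV- libraries were above all others. The log2 difference of EV- from control of 1.49 ± 0.52 was not called (limma adjusted p = 0.211). This difference was 0.80 ± 0.34 when EV- replicate 1 was left out. Over all alternatives the adjusted p of the difference from control ranged from 0.0320 to 0.772.

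Among the inhibitors of cyclin-dependent kinases, *Cdkn1b*, which encodes p27 and holds cells in G1, was lower after nephritis in the values but not in the test. It stood at 45.1 and 45.7 CPM in control, 43.0 and 35.8 CPM in GN, 32.3, 33.3 and 36.1 CPM in EV+, and 29.4, 31.7 and 38.4 CPM in EV-. All nephritic libraries were below both control libraries. The log2 differences from control were -0.41 ± 0.13 for EV+ (limma adjusted p = 0.139) and -0.45 ± 0.13 for EV- (limma adjusted p = 0.116). Over all alternatives the adjusted p ranged from 0.0436 to 0.499 for EV+ and from 0.0335 to 0.443 for EV-.

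*Cdkn1a*, which encodes p21, an inhibitor induced by DNA damage, stood at 14.6 and 10.4 CPM in control, 8.56 and 8.29 CPM in GN, 9.22, 9.09 and 10.6 CPM in EV+, and 8.65, 7.08 and 11.3 CPM in EV-. Control replicate 1 was the highest library, and control replicate 2 lay within the range of EV+ and EV-. *Cdkn2c*, which encodes the G1 inhibitor p18, ranged from 5.09 to 7.16 CPM with overlapping groups. Neither gene was called in any of the 6 comparisons.

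**Figure D2:**
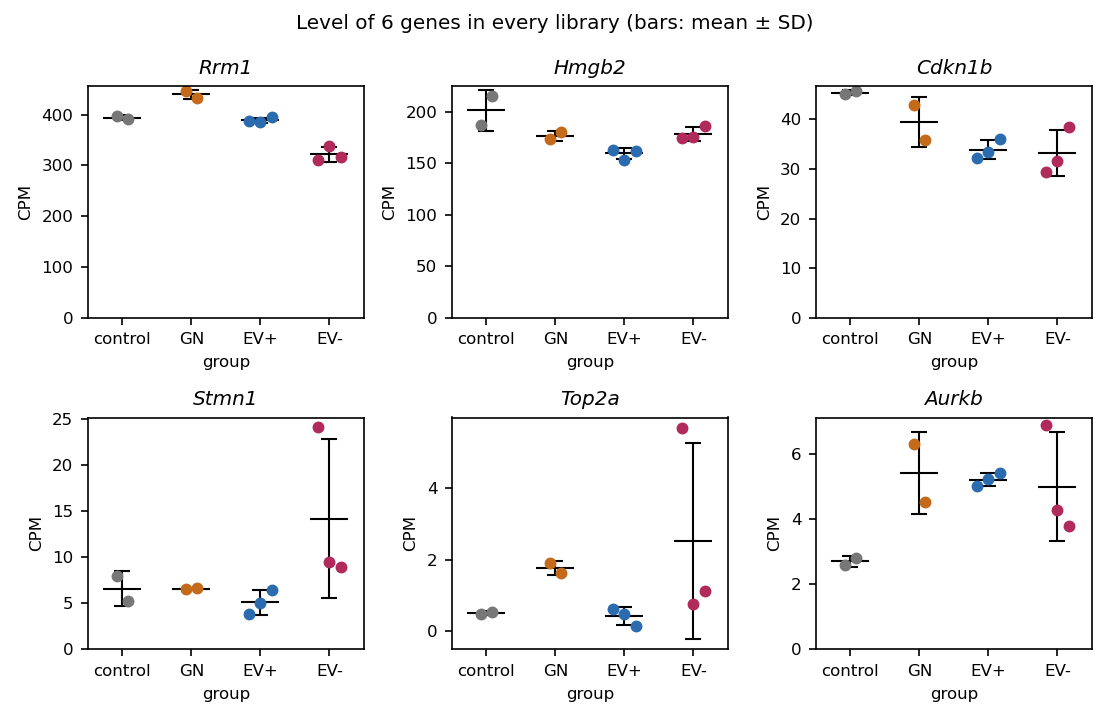
CPM (vertical axis, from 0 except where an error bar runs lower) of *Rrm1*, *Hmgb2*, *Cdkn1b*, *Stmn1*, *Top2a* and *Aurkb* in every library of the 4 groups, with points for libraries and bars for mean ± SD (n = 2, 2, 3 and 3). *Rrm1* is lowest in EV-, *Hmgb2* lowest in EV+, *Cdkn1b* highest in control and *Aurkb* lowest in control, while the means of *Stmn1* and *Top2a* in EV- are pulled up by EV- replicate 1.

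*Hmgb2*, a chromatin protein of the high mobility group that is abundant in dividing cells, fell in EV+ macrophages. Its level was 187 and 216 CPM in control, 173 and 180 CPM in GN, 163, 153 and 162 CPM in EV+, and 174, 175 and 186 CPM in EV-. The EV+ libraries were below all others and the control libraries above all others. The fall against control was 0.33 ± 0.08 (SE) in log2 (159.8 ± 5.56 against 201.6 ± 20.3 CPM, limma adjusted p = 0.0546), and the log2 difference of EV+ from EV- of -0.16 ± 0.07 was not called (limma adjusted p = 1.0). The call against control was lost without control replicate 2 (adjusted p = 0.488), EV+ replicate 2 (adjusted p = 0.104) or EV+ replicate 3 (adjusted p = 0.133).

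*Aurkb*, the kinase of the chromosomal passenger complex, stood at 2.58 and 2.80 CPM in control, 6.31 and 4.52 CPM in GN, 5.0, 5.22 and 5.40 CPM in EV+, and 6.90, 4.28 and 3.77 CPM in EV-. Every nephritic library was above both control libraries, and the nephritic groups overlapped. The log2 differences from control of 0.78 ± 0.26 for GN, 0.75 ± 0.24 for EV+ and 0.66 ± 0.24 for EV- were not called (limma adjusted p = 0.249, 0.140 and 0.229). Its relative *Aurka*, a centrosomal kinase, ranged from 40.3 CPM in EV- replicate 3 to 57.5 CPM in EV- replicate 1.

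Most of the mitosis genes were highest in EV- replicate 1. Of the 20 mitosis genes, 14 had their highest level there, and the other 6 were *Ccnb1*, *Cdk1*, *Cenpf*, *Hmgb2*, *Kif23* and *Plk1*. Over all roles EV- replicate 1 was the highest library for 21 of 45 genes, beside 9.71% of all genes, and the other libraries for 0 to 6 genes each. Among genes with a mean under 10 CPM these were 18 of 32, beside 17.6% of all such genes. *Ccna2* and *Birc5* entered the table through this library alone. Of the 43 genes that reached 1 CPM elsewhere 19 were highest in it, beside 8.61% of all such genes.

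*Stmn1*, which encodes the microtubule-destabilizing protein stathmin, stood at 7.90 and 5.20 CPM in control, 6.55 and 6.59 CPM in GN, 3.79, 4.97 and 6.42 CPM in EV+, and 24.1, 9.43 and 8.91 CPM in EV-. All EV- libraries were above all others, and EV- replicate 1 was 3.68 times the median of the other 9 libraries. The log2 difference of EV+ from EV- of -1.20 ± 0.30 was not called (limma adjusted p = 0.572). Without EV- replicate 1 this difference shrank to -0.77 ± 0.23 (limma adjusted p = 0.935). *Bub1*, a kinase of the spindle checkpoint, stood at 0.924 and 0.495 CPM in control, 1.66 and 1.09 CPM in GN, 1.41, 1.47 and 0.758 CPM in EV+, and 4.57, 2.14 and 1.87 CPM in EV-, with all EV- libraries above all others. Its log2 difference of EV- from control of 1.12 ± 0.32 was not called (limma adjusted p = 0.111). It was 0.82 ± 0.28 when EV- replicate 1 was left out, and over all alternatives the adjusted p ranged from 0.0311 to 0.543.

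*Top2a*, the topoisomerase that untangles replicated chromosomes, is named for its values, which had been seen. It stood at 0.462 and 0.536 CPM in control, 1.89 and 1.62 CPM in GN, 0.625, 0.463 and 0.134 CPM in EV+, and 5.69, 0.765 and 1.13 CPM in EV-. EV- replicate 1 was 9.10 times the median of the other 9 libraries, with 117 reads, while EV- replicate 2 and EV- replicate 3 lay below both GN libraries. The log2 difference of EV- from GN was 0.09 ± 0.44 with EV- replicate 1 and -0.51 ± 0.27 without it, and neither was called (limma adjusted p = 0.985 and 0.703).

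*Mki67*, the gene of the proliferation antigen Ki-67, stood at 4.04 and 2.64 CPM in control, 1.34 and 2.11 CPM in GN, 1.45, 2.48 and 2.99 CPM in EV+, and 6.75, 2.70 and 1.95 CPM in EV-. EV- replicate 1 was the highest library and control replicate 1 the next, and EV- overlapped every other group. Both GN libraries were below both control libraries. The log2 difference of GN from control of -0.67 ± 0.40 was not called (limma adjusted p = 0.632). The log2 difference of EV- from control was 0.03 with EV- replicate 1 and -0.38 without it. *Kif23*, a kinesin of cytokinesis, ranged from 3.43 CPM in GN replicate 1 to 6.88 CPM in EV- replicate 2 and was 4.86 CPM in EV- replicate 1. It was among the low mitosis genes that did not peak in that library.

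The CHR element was searched as TTTGAA and the box of the nuclear factor Y as CCAAT. An E2F motif was counted where a promoter held the letters TTCCCGC or, as another form of the same motif, the letters TTGGCGC. All were searched on both strands, and the box read backwards can share bases with the last E2F motif. RefSeq promoters of build GRCr8, from 250 bases before to 50 after the start, were matched by symbol for 35 of 45 genes. TTTGAA was in 10 of 16 mitosis promoters and in 1 of 12 replication promoters, beside 11.5% of the promoters of genes in the table and 18.3% of all promoters. All 10 of those mitosis promoters also held a CCAAT box, a combination found in 4.94% of the promoters of genes in the table. An E2F motif was in 7 of 12 replication promoters and in 4 of 16 mitosis promoters. It was in 12.7% of the promoters of genes in the table and in 6.26% of all promoters. A match describes letters and not a bound site. The 250 bases before the start are shown for *Top2a* and *Cdk1*, mitosis genes with every EV- library above every EV+ library, for *Hmgb2*, which also holds CHR and CCAAT letters and fell in EV+ against control, and for *Rrm1*, the replication gene that fell in EV-. Capitals mark the motifs, which overlap nowhere in these sequences. They lie at chr10:84473094-84473343 (minus strand, *Top2a*), chr20:19265043-19265292 (plus strand, *Cdk1*), chr1:166235654-166235903 (plus strand, *Rrm1*) and chr16:37723951-37724200 (minus strand, *Hmgb2*).
Top2a: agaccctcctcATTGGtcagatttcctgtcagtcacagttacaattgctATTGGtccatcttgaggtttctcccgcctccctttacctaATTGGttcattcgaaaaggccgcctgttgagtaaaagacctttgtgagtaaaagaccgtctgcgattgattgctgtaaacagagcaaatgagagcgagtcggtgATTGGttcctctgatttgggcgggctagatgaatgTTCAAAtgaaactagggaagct
Cdk1: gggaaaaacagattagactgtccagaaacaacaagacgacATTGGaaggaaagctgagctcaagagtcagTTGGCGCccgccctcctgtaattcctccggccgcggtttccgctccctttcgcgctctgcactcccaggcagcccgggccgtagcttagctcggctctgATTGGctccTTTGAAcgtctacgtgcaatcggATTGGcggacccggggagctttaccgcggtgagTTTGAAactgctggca
Rrm1: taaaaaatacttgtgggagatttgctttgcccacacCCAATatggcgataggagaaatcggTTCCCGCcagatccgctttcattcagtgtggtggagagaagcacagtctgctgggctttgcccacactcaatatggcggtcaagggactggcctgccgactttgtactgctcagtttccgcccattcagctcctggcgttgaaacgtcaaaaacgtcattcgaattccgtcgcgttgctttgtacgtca
Hmgb2: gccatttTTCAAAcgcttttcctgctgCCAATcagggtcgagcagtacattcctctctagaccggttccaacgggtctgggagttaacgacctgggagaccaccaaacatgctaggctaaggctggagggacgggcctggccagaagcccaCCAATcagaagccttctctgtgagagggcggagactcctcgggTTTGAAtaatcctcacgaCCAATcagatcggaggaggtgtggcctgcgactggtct

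In *Top2a* the CHR letters begin at position -22 and are read on the reverse strand, with CCAAT boxes from -239 to -57. *Cdk1* holds CHR letters at -72 and -16 and the second E2F motif at -180, and *Hmgb2* holds CHR letters at -243 and -56. *Rrm1* holds no CHR letters, a CCAAT box at -214, and E2F letters at -189 and, beyond the bases shown, at 13.

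Summed over the 18 mitosis genes with a mean under 10 CPM, EV- replicate 1 held 82.0 CPM (1687 reads). EV- replicate 2 and EV- replicate 3 held 41.6 and 42.7 CPM, control 35.8 and 29.8 CPM, GN 35.6 and 37.7 CPM, and EV+ 27.7, 32.0 and 34.4 CPM. The EV- libraries were above all others, and EV- replicate 1 was 1.92 times the next library. This sum includes *Ccna2*, *Ccnb2*, *Ube2c* and *Birc5*, which entered the table through EV- libraries alone, so it is given as a description. The limit of 10 CPM was chosen after seeing the data. The sum of the 15 NK and T cell markers was also highest in EV- replicate 1. It was next in EV- replicate 2 and then in EV- replicate 3, while the mitosis sums of those libraries lay close together, at 41.6 and 42.7 CPM. A link between these sums was not tested. In bulk RNA, a few dividing cells of another type cannot be told apart from a small rise in every macrophage. Summed over all 20 mitosis genes, of which *Hmgb2* holds the larger share, the libraries ranged from 236 to 314 CPM, and EV- replicate 1 was 1.08 times the next library, control replicate 2.

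**Figure D3:**
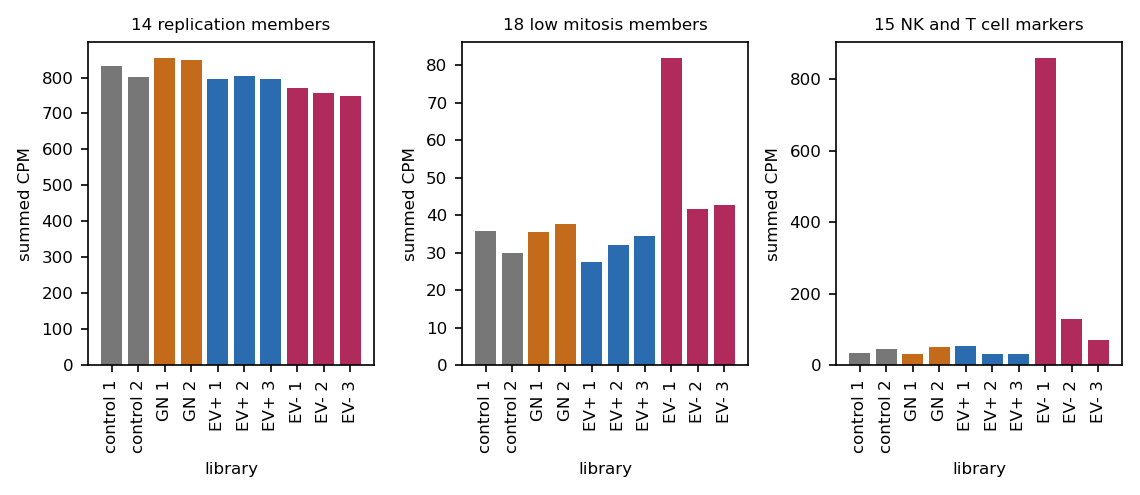
Summed CPM (bars, vertical axes from 0, each panel with its own scale) of 14 replication genes, of the 18 mitosis genes with a mean under 10 CPM and of 15 NK and T cell markers in each of the 10 libraries, colored by group. The replication sum stays between 750 and 855 CPM, while EV- replicate 1 is the tallest bar for the mitosis genes (82.0 CPM) and for the NK and T cell markers (860 CPM). The 18 mitosis genes include *Ccna2*, *Ccnb2*, *Ube2c* and *Birc5*, which entered the table through EV- libraries alone.

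Between EV+ and EV- macrophages, every EV- library was above every EV+ library for 10 of 45 genes (*Bub1*, *Ccna2*, *Ccnd2*, *Cdk1*, *Cdk4*, *Hmgb2*, *Mcm5*, *Rrm2*, *Stmn1* and *Top2a*), beside 4.65% of all genes. The opposite held for 1 of 45 (*Rrm1*), beside 4.25%. Among genes with a mean under 10 CPM, all EV- libraries were above all EV+ libraries for 8 of 32, beside 7.37% of all such genes. Setting aside the genes that reached 1 CPM in EV- libraries alone, which had entered the table through the group where they were high, left 9 of 40 cell cycle genes, beside 387 of 8841 of all genes. Without EV- replicate 1 the groups were apart in this direction for 14 of 45 genes, which included all 10 of those above, beside 8.85% of all genes, and in the opposite direction for 6 of 45 (*Aurka*, *Aurkb*, *Ccnd1*, *E2f1*, *Mcm2* and *Rrm1*), beside 8.19% of all genes. Leaving out EV- replicate 2 gave 17 of 45 with EV- above EV+, beside 900 of all 9003 genes.

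The median log2 difference of EV+ from EV- over the 20 mitosis genes was -0.44, with 17 of 20 below 0, and over the 14 replication genes -0.07, with 11 of 14 below 0. Without EV- replicate 1 these medians were -0.26, with 16 of 20 below 0, and -0.05, with 10 of 14 below 0. The median over all genes was -0.01 with and without that library. The mitosis median was -0.43, with 13 of 16 below 0, when *Ccna2*, *Ccnb2*, *Ube2c* and *Birc5*, which reached 1 CPM in EV- libraries alone, were set aside, and -0.19, with 12 of 16 below 0, when EV- replicate 1 was left out as well. Against control, the mitosis median was 0.39 for EV- (0.22 without EV- replicate 1), 0.12 for GN and -0.13 for EV+, beside medians within 0.01 of 0 over all genes. In EV+ against EV- the calls over all genes rose from 2 to 5 when the replicate number was a block for all 4 groups, and to 34 when it covered the EV+ and EV- libraries alone. These fits called 0 and 1 (*Rrm1*) of the 45 cell cycle genes there.

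**Figure D4:**
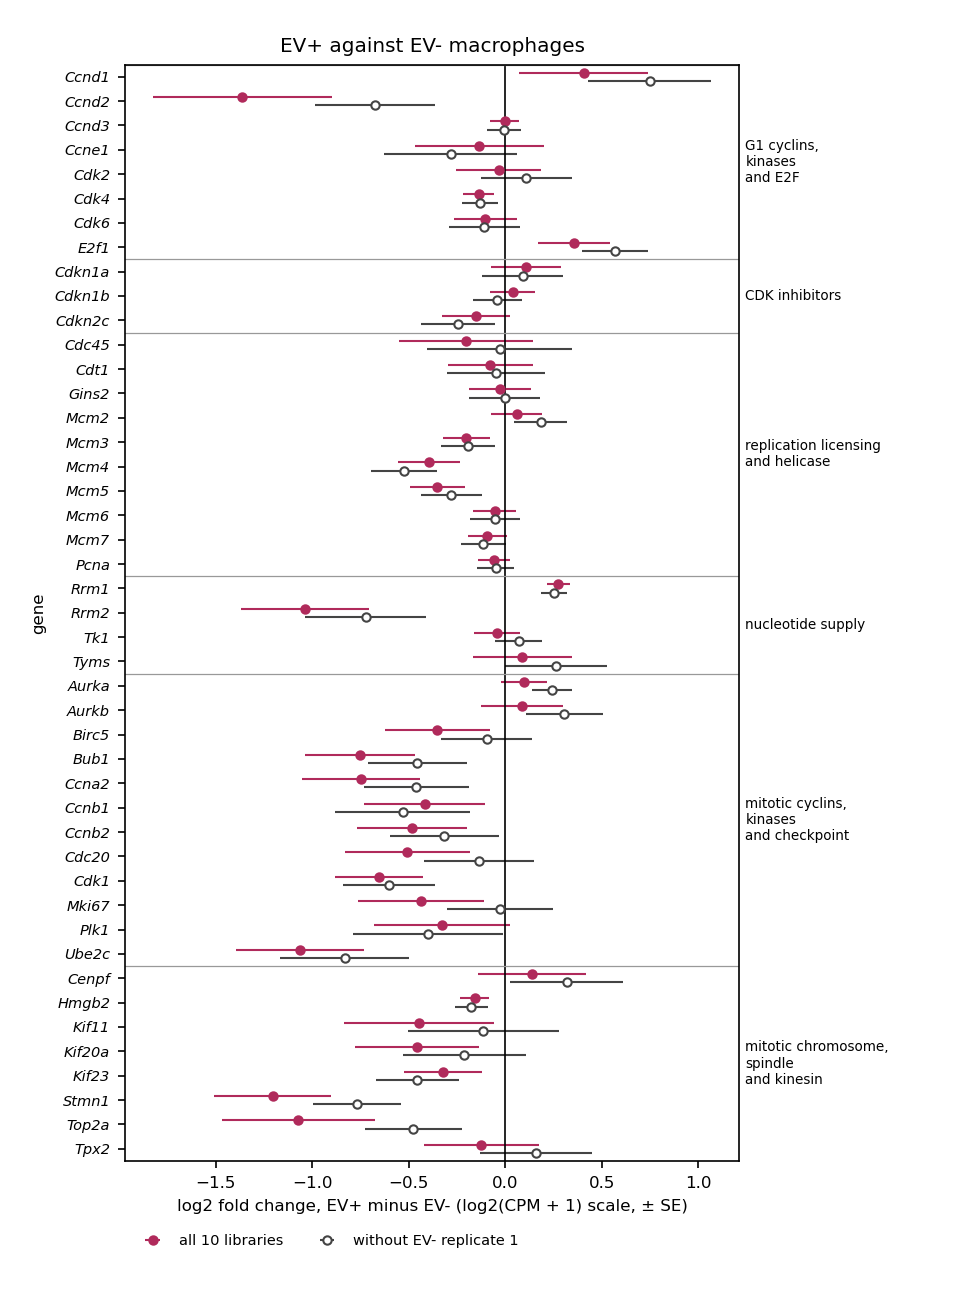
Log2 fold change of EV+ minus EV- (horizontal axis, log2(CPM + 1) scale, ± SE) for each of the 45 cell cycle genes by role, from all 10 libraries (filled) and without EV- replicate 1 (open). Most mitosis genes lie left of 0 in both fits (17 and 16 of 20), and *Ccnd2*, *Stmn1* and *Top2a* move toward 0 without EV- replicate 1, while *Rrm1* stays at the right.

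Other genes of the cycle were read from lists of 29 DNA replication genes, 32 mitosis genes, 5 further brakes of the cycle and 13 stress response and growth arrest genes in the table. Of the 29 replication genes 2 rose in EV- against control, beside 2.84% of all genes called there in either direction. In the other comparisons 0 of the 29 were called. *Uhrf1*, which keeps DNA methylation at the replication fork, stood at 0.385 and 0.206 CPM in control, 1.18 and 1.13 CPM in GN, 1.41, 0.210 and 0.580 CPM in EV+, and 4.18, 1.89 and 1.60 CPM in EV-, with all EV- libraries above all others. Its rise in EV- against control was 1.39 ± 0.35 in log2 (limma adjusted p = 0.0683). *Mcm10*, a factor of origin firing, rose by 1.08 ± 0.28 (5.232 ± 1.72 against 1.949 ± 0.948 CPM, limma adjusted p = 0.0744). Without EV- replicate 1, 0 of the 29 genes were called in EV- against control, while 5 of 29 passed an unadjusted p under 0.05 (limma), all of them higher in EV-, beside 545 higher and 542 lower among all 9003 genes.

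Of the 32 other mitosis genes 1 was called, and it fell in every nephritic group against control. Over all genes 1.75%, 3.63% and 2.84% were called in GN, EV+ and EV- against control. *Cks2*, a small subunit of cyclin-dependent kinases, stood at 20.6 and 16.4 CPM in control, 9.27 and 10.5 CPM in GN, 8.63, 5.81 and 9.41 CPM in EV+, and 9.62, 9.28 and 9.34 CPM in EV-. All nephritic libraries were below both control libraries. The fall was 0.83 ± 0.21 in GN, 1.14 ± 0.20 in EV+ and 0.90 ± 0.20 in EV- in log2 (limma adjusted p = 0.0998, 0.00613 and 0.0338). These comparisons share the 2 control libraries.

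Of the 5 further brakes, among them *Rb1* and its relatives, 0 were called in any comparison by limma. An unadjusted p under 0.05 was held by 1 of 5 in GN, EV+ and EV- against control, beside 10.4%, 15% and 13.1% of all genes, by 1 of 5 in EV+ against GN, beside 7.13%, and by 0 of 5 in the other comparisons. Of the 13 stress response and growth arrest genes 1, 3 and 4 fell in GN, EV+ and EV- against control, beside 1.75%, 3.63% and 2.84% of all genes called. In the comparisons among the nephritic groups 0 of the 13 were called. *Gadd45a*, a stress protein that can hold cells in G2, fell by 0.56 ± 0.10 in GN, 0.55 ± 0.10 in EV+ and 0.39 ± 0.10 in EV- (limma adjusted p = 0.0179, 0.00654 and 0.0581). *Btg2*, an antiproliferative gene, fell by 0.77 ± 0.13 in EV+ and 0.70 ± 0.13 in EV- (limma adjusted p = 0.00613 and 0.0159), from a mean of 2907 CPM in control to 1713 and 1796 CPM. *Plk2*, a stress-induced kinase, fell by 1.06 ± 0.24 and 1.43 ± 0.24 in log2 in EV+ and EV- (limma adjusted p = 0.0370 and 0.00858), and *Pmaip1*, which encodes the apoptosis factor Noxa, by 0.85 ± 0.22 in EV- (limma adjusted p = 0.0772).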

How the data were processed

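Splenic M2 macrophages of 4 groups were sequenced in 10 libraries, paired-end, after SMART-Seq v4 amplification, which does not mark strand. The authors aligned reads to rn6 with STAR (2.5.3), counted them on RefSeq genes with HTSeq (0.6.0), removed genes whose maximum stayed under 1 CPM, and normalized with TMM in edgeR. The deposited signal is TMM-normalized CPM for 9003 genes, with a smallest row maximum of 1.01. On division by the worth of 1 read, 100% of values were whole within 0.01 of a read, so read counts were recovered from the deposited values. Of the symbols, 18 had been turned into dates. No column was left unused, and groups followed the sample titles. Replicates differed by a chi-square of 13.4 to 45.4 per degree of freedom, so none was a copy. P-values measure the spread between these libraries only.

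The main test was limma (3.58.1, R 4.3.3) on log2(CPM + 1), with an intensity trend, 4 groups and 6 residual degrees of freedom, in 6 comparisons. Recovered reads were used for edgeR (4.0.16) and DESeq2 (1.42.0) as alternatives, and the procedure was tested on simulated data. Deviations from the group means correlated at 0.203, 0.295 and 0.122 between EV+ and EV- libraries of the same number. These numbers were therefore taken to pair EV+ with EV-, from the data and not from the labels, and the correlations were not tested. For control and GN the correlation was 0.0878, which is 1 value, since groups of 2 give both pairs the same one. Genes with values in every library were those called in any comparison and, in each role, the 3 with the highest mean and the gene with the largest fold. The genes, lists and tests were chosen with earlier results of these data known. Promoters came from RefSeq (GRCr8), for 35 of 45 genes.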

Additional observations from a re-analysis of the deposited data

How the results depend on the processing

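The number of cell cycle genes called stayed at 0 in GN against control and in EV+ against GN under every alternative run. In EV+ against control it was 1, and it was 0 without the intensity trend, at a false discovery rate under 0.05 or with only the groups compared, 2 with the replicate block, 3 with edgeR's likelihood-ratio test, 4 with DESeq2 and 0 to 2 with a library left out. In EV- against control it was 1, and it was 0 without the trend or with only the groups compared, 4 with the replicate block, 5 with the likelihood-ratio test, 5 with DESeq2 and 0 to 2 with a library left out. In EV- against GN it was 1, and it was 0 without the trend, 2 with the likelihood-ratio test, 3 with DESeq2 and 0 to 1 with a library left out. In EV+ against EV- it was 0, and it was 4 with the likelihood-ratio test and 3 with DESeq2. The replicate block changed no other call of a cell cycle gene. It also ties control to GN libraries, whose numbers were not shown to pair. A block for the EV+ and EV- libraries alone, chosen after seeing the data, called 4 and 5 genes in EV+ and EV- against control, 3 in EV- against GN and 1 in EV+ against EV-. Outside EV+ against EV- its p-values are too small, because it takes the spread between pairs out of the error of groups that have no pairs. The cause of these differences was not tested. The sum of EV- replicate 1 over the highest other library turned from 0.901 to 1.055 without *Rrm1* and to 1.171 with only replication genes under 10 CPM, an alternative chosen after seeing the data. For the mitosis genes it moved from 1.082 to 1.54 without *Hmgb2* and to 1.919 with only genes under 10 CPM. Over all genes, in the order GN, EV+ and EV- against control, EV+ and EV- against GN, and EV+ against EV-, limma called 158, 327, 256, 11, 34 and 2 genes, the likelihood-ratio test 292, 516, 444, 43, 126 and 57, and DESeq2 294, 540, 474, 41, 113 and 34.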
